A study of Mus musculus with 2 samples.

Results

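Metallothionein high cells, called Mt-high cells here, were 115 of the 10338 cells kept from 1 single-cell RNA library. They were chosen as cells with at least 3 unique molecular identifiers (UMIs) summed over Mt1 and Mt2, where cells were kept if they had 200 genes or more and mitochondrial genes made up less than 20% of their UMIs. They were set against the 10000 cells with no UMI of either gene, called Mt-zero cells. Another 197 cells had 1 UMI and 26 had 2 UMIs of these genes, and they belonged to neither class. All cells were GD2TIF cells, which are activated T cells of Cas9 transgenic origin infected with a retrovirus that targets Bcor and Zc3h12a and that delivers the chimeric antigen receptor (CAR) 14g2a, directed at the ganglioside GD2. Each immunocompetent C57BL/6 recipient was given 1000000 of them, and CD8+Thy1.1+ cells were sorted from the spleen after 2 months and used for 1 library of RNA and 1 of T cell receptors (TCR) on the Singleron microwell system. Both classes came from the same infected, transferred and sorted cells, editing was not measured cell by cell, and unedited cells are not analysed here. The number of mice and their age are not given in the sources used here, so a difference between mice and a difference between T cell families cannot be told apart. Cells of 1 library are not replicates, so no p-value is given, and every interval below is a 95% interval for counting error only.

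Metallothioneins are small cysteine-rich proteins that bind zinc and copper and buffer the free zinc of the cell. Their transcription is driven by MTF-1, a zinc-sensing factor that binds metal response elements in promoters, and glucocorticoids, hypoxia and oxidative stress are also known to raise it. Zinc enters the cytoplasm through importers of the Slc39 (ZIP) family and leaves it, to the outside or into organelles, through exporters of the Slc30 (ZnT) family. In T cells, zinc and metallothioneins are known to bear on activation and, in mouse tumours, on the dysfunction of CD8 T cells.

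Metal response elements lie in the promoters of the genes that define the cells, and those promoters are shown for this reason. Mt1 and Mt2 lie beside each other on chromosome 8 (GRCm38.p6, chr8:94178883-94180327 and chr8:94172618-94173567, forward strand). The windows run from 250 bases before to 50 bases after a transcript start of the RefSeq promoter table, which for Mt1 and Slc30a1 lies downstream of the gene's outermost start, the one in the coordinates given for Mt1. Capitals mark matches to the core of the element, TGCACNC or TGCGCNC, and on the reverse strand GNGTGCA or GNGCGCA. Slc30a1, an exporter at the cell surface and a known MTF-1 target, is shown beside them.
Mt1, chr8:94178839-94179138, forward strand: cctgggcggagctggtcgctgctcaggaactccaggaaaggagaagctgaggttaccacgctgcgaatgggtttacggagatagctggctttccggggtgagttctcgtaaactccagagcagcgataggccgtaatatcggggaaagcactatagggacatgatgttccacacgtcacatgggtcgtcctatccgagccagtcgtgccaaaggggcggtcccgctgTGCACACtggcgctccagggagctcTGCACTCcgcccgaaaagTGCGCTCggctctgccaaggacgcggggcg
Mt2, chr8:94172368-94172667, forward strand: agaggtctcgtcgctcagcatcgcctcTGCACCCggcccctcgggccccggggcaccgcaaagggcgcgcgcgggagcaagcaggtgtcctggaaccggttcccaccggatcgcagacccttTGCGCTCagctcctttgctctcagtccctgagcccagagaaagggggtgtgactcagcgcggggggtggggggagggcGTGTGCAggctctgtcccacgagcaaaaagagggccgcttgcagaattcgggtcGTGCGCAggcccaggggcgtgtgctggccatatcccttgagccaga
Slc30a1, chr1:191906531-191906830, forward strand: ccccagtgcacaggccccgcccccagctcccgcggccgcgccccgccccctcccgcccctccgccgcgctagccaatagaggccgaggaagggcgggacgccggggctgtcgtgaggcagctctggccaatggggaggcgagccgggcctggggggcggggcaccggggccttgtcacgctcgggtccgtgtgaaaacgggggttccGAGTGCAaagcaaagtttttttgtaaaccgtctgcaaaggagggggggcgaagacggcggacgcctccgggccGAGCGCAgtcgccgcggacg
The Mt1 window held 3 matches, all on the forward strand, and the Mt2 window held 4, of which 2 were on each strand. The Slc30a1 window held 2 matches, both on the reverse strand. Among 32851 promoter windows of 300 bases, 25.7% held at least 1 match, 7.11% at least 2, 1.97% at least 3 and 0.517% at least 4. Mt3 had 1 match, and neither of the 2 windows of Slc39a10 nor that of Armc7, both described below, had any. Of 7 genes looked up, 6 were in the table, and Epas1 was not.

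The values in this paragraph are those the rule used and are given as a description. Mt-high cells held from 3 to 67 Mt UMIs, with a median of 10, which was a median of 0.520% of a cell's UMIs and at most 3.67%. They were 1.11% of the cells (0.919% to 1.33%) and held 86.1% of the 1794 Mt UMIs of the library. Mt1 had 1194 UMIs over all 115 Mt-high cells and Mt2 had 351 UMIs over 90 of them, a ratio of 3.40 Mt1 UMIs per Mt2 UMI. At the threshold, 17 cells had exactly 3 UMIs and were included, and the 26 cells with 2 were not. No single value above 3 UMIs held more than 8 cells, and in all 54 Mt-high cells had 3 to 9 UMIs and 61 had 10 or more. Median depth was 2142 UMIs in Mt-high cells and 1908.5 UMIs in Mt-zero cells, and the median number of genes was 1036 and 973. Mitochondrial genes took a median of 3.62% and 3.53% of UMIs in Mt-high and Mt-zero cells, and ribosomal protein genes 19.2% and 16.9%. When each cell was thinned to 1000 UMIs, 77 of 9456 cells still had at least 3 Mt UMIs, and all 77 were Mt-high at full depth. Of the 111 Mt-high cells deep enough to thin, 27 then had 1 or 2 Mt UMIs and 7 had none.

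**Figure D1:**
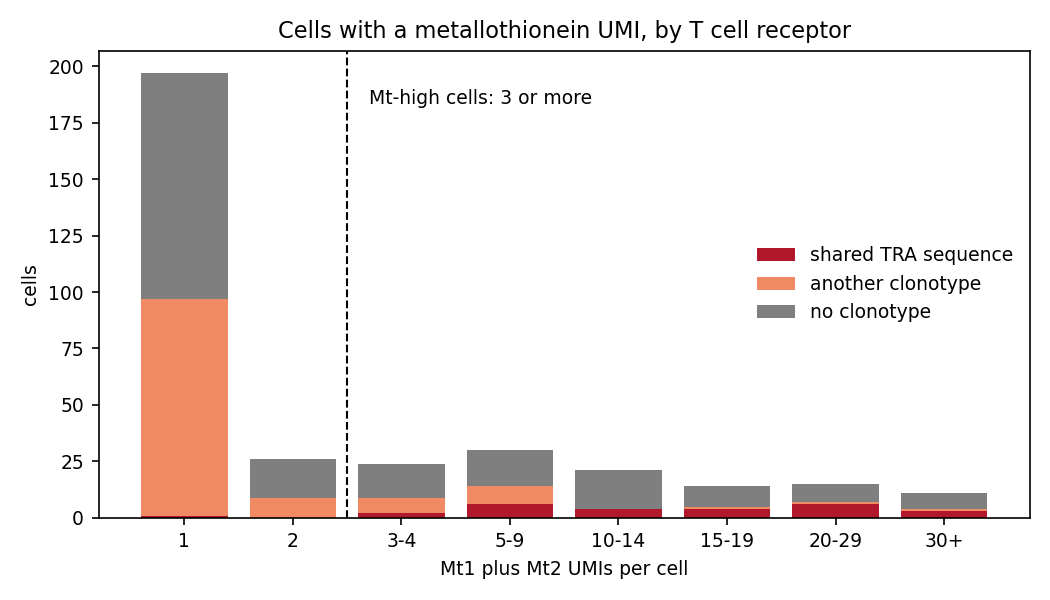
Number of cells (vertical axis) by Mt1 plus Mt2 UMIs per cell (horizontal axis, in classes of unequal width), for cells with at least 1 such UMI, coloured by T cell receptor. The dashed line marks the threshold of 3 UMIs; cells with the shared TRA sequence described below stand among the Mt-high cells, with 1 at 1 UMI and none at 2 UMIs.

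The CD8 T cell label held for the Mt-high cells. All 7 marker genes of this type (Cd3d, Cd3e, Cd3g, Cd8a, Cd8b1, Trac and Thy1) were measured, and none was past 1.5-fold in either direction. Their summed level was 5728 counts per 1000000 UMIs (CPM, with Mt1 and Mt2 left out of the total) in Mt-high cells and 5933 CPM in Mt-zero cells. Cd3e, a chain of the CD3 complex, was at 1257 CPM in Mt-high cells and 1473 CPM in Mt-zero cells, and Cd8b1 was at 476 and 407 CPM. Most markers of other cell types had no UMI in the Mt-high cells. All 5 NK cell markers in the matrix, all 3 of neutrophils and the 1 of platelets had no UMI. Of 7 B cell markers 6 were at 0 and Ebf1 had 7 UMIs, and of 6 monocyte and macrophage markers 5 were at 0 and Cd68 had 7 UMIs. The B cell markers summed to 24.3 CPM in Mt-high cells and 54.9 CPM in Mt-zero cells. Those of monocytes and macrophages summed to 24.3 and 13.3 CPM, a ratio of 1.83 (0.73 to 3.82). The 5 erythroid markers summed to 10.4 CPM (3 UMIs) in Mt-high cells and to 162 CPM in Mt-zero cells. No Mt-high cell had UMIs of 2 or more markers of 1 of these types. Of the 4 dendritic cell markers 2 were at 0, Xcr1 had 1 UMI and the rest came from Bst2, which T cells also express. Among the 5 plasma cell markers 4 were at 0 and Xbp1 had 24 UMIs, and their sum was 83.3 CPM in Mt-high cells and 105 CPM in Mt-zero cells. Of 5 stromal and endothelial markers 3 were at 0, and the other two were Pecam1, which T cells also express, and Epas1.

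Zinc transporters differed from each other, and 1 importer stood out. Slc39a10 encodes ZIP10, a zinc importer of the plasma membrane, on chromosome 1 (chr1:46807544-46925776). It was at 128 CPM in Mt-high cells (90.4 to 177) and 13.6 CPM in Mt-zero cells (12.1 to 15.3), a ratio of 9.44 (6.51 to 13.3). This rests on 37 UMIs spread over 22 Mt-high cells, of which the highest held 6 and the next 4, and the ratio was 7.91 without the highest cell. Cells with 10 or more Mt UMIs held 31 of the 37. The interval of the 54 cells with 3 to 9 Mt UMIs overlapped that of the Mt-zero cells. A Slc39a10 UMI was found in 19.1% of Mt-high cells (12.4% to 27.5%) and in 2.44% of Mt-zero cells (2.15% to 2.76%). After thinning to 1000 UMIs the shares were 8.11% of Mt-high cells and 1.29% of Mt-zero cells. None of 17 B cell-like cells, with a median of 2145 UMIs, had one, but so few cells allow a share of up to 19.5%, so they give no usable background. Because Slc39a10 was listed as a marker of these cells with results of the same data known, its rank is a description.

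The other importers gave no comparable difference at this depth. Of 14 listed Slc39 genes 12 were in the matrix, and 5 of these (Slc39a2, Slc39a7, Slc39a8, Slc39a11 and Slc39a14) had no UMI in Mt-high cells. Slc39a6, a plasma membrane importer closely related to Slc39a10, was at 27.8 CPM in Mt-high cells (8 UMIs) and 16.1 CPM in Mt-zero cells, a ratio of 1.73. Slc39a1, also at the plasma membrane, had 5 UMIs, which gave 17.4 CPM in Mt-high cells and 10.1 CPM in Mt-zero cells. Slc39a9 was at 10.4 and 14.5 CPM in Mt-high and Mt-zero cells, and Slc39a4 at 6.94 and 12.3 CPM. The importers summed to 212 CPM in Mt-high cells and 97.2 CPM in Mt-zero cells, and Slc39a10 gave 37 of the 61 UMIs in Mt-high cells.

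Exporters as a group were level. The 8 Slc30 genes in the matrix, of 10 listed, summed to 115 CPM in Mt-high cells and 107 CPM in Mt-zero cells, a ratio of 1.07 (0.735 to 1.51). Slc30a1 had 9 UMIs in 6 Mt-high cells, with 31.2 CPM (14.3 to 59.3) there and 14.3 CPM (12.8 to 16.0) in Mt-zero cells. Its ratio was 2.18 (0.99 to 4.20), so at this depth the difference was not separable from counting error. Slc30a9 was at 34.7 CPM in Mt-high cells and 34.5 CPM in Mt-zero cells, and Slc30a5 and Slc30a7, which load the secretory pathway, were at 17.4 and 13.9 CPM in Mt-high cells against 21.4 and 21.3 CPM in Mt-zero cells. Slc30a3, Slc30a4 and Slc30a10 had no UMI in Mt-high cells. A count of 0 over the Mt-high cells has an interval of up to 12.8 CPM.

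**Figure D2:**
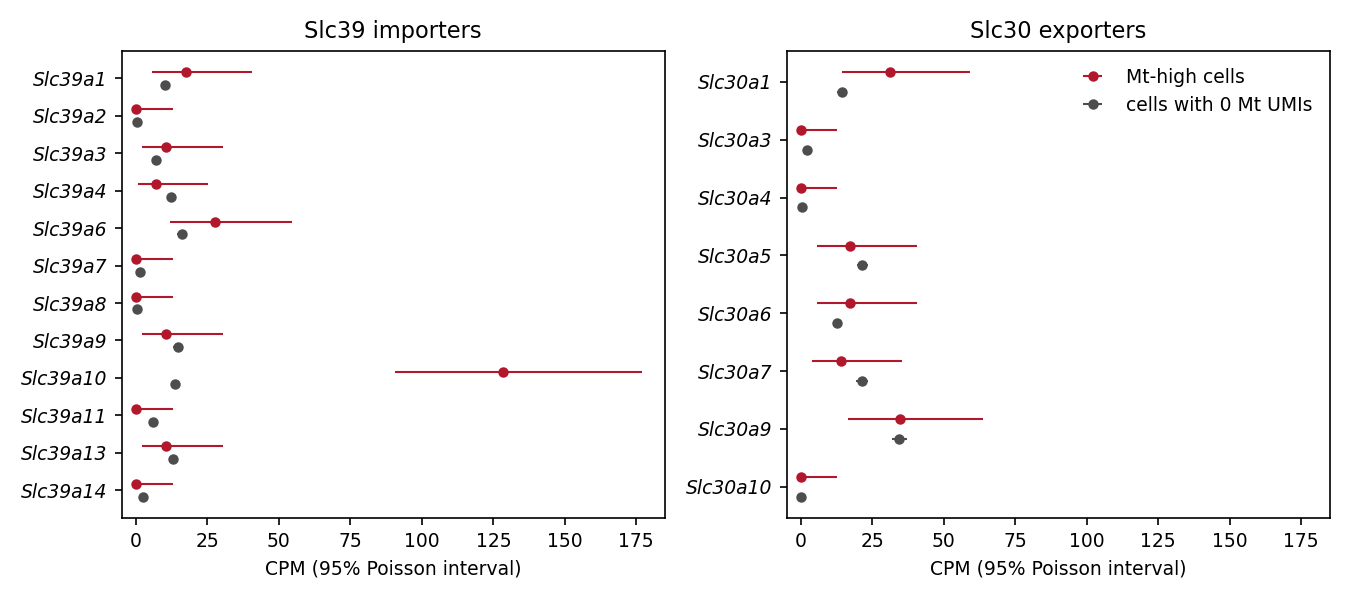
Level in CPM (horizontal axes) of the 12 Slc39 importers and 8 Slc30 exporters of the matrix in Mt-high cells and in cells with 0 Mt UMIs, with 95% Poisson intervals as bars. Slc39a10 is at 128 CPM in Mt-high cells and 13.6 CPM in Mt-zero cells, and the intervals of each other gene overlap.

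Mtf1, the gene of the zinc sensor itself, was level, at 27.8 CPM in Mt-high cells and 28.4 CPM in Mt-zero cells. Mt3, the third metallothionein gene of the cluster, lies within 100 kb of Mt1 and Mt2 and was at 13.9 CPM in Mt-high cells and 15.4 CPM in Mt-zero cells, a ratio of 0.90 (0.24 to 2.33). Nup93, a nuclear pore gene on the other side, was at 17.4 and 16.0 CPM in Mt-high and Mt-zero cells. Bbs2 had 2 UMIs in Mt-high cells. No other gene of the matrix lies within 100 kb of Slc39a10 in the annotation. Of 7 genes listed as MTF-1 and its targets, a list that gives no direction of regulation, Slc39a10 was the only gene with intervals apart. Gclc, a glutathione synthesis gene, had a ratio of 1.58 (0.72 to 3.03) from 9 UMIs. Selenoh, the only measured gene of this list, was at 72.9 CPM in Mt-high cells and 90.6 CPM in Mt-zero cells (0.80). Genes of copper and iron handling were level, with 4 of 16 measured, none past 1.5-fold and a median ratio of 1.01. Among them the iron store genes Fth1 and Ftl1 were at 771 and 531 CPM in Mt-high cells against 859 and 507 CPM in Mt-zero cells.

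Epas1, which encodes the hypoxia factor HIF-2α, was the other gene listed beside the metallothioneins. It lies on chromosome 17 (chr17:86753864-86833410) and was at 69.4 CPM in Mt-high cells (42.4 to 107) and 12.7 CPM in Mt-zero cells (11.2 to 14.3), a ratio of 5.48 (3.29 to 8.63). Its 20 UMIs came from 10 Mt-high cells, with 5 in the highest and 4 in the next, and only 3 Mt-high cells had UMIs of both Epas1 and Slc39a10. Hif1a, the gene of the sister factor HIF-1α, went the other way, at 38.2 CPM in Mt-high cells (19.1 to 68.3) and 119 CPM in Mt-zero cells (115 to 124), a ratio of 0.32 (0.16 to 0.57). Of the 20 listed hypoxia response genes 5 were measured, Hif1a included. Mxi1, a MYC antagonist (0.46), and Ddit4, an mTORC1 inhibitor (0.64), were lower as well. Ldha (1.27) and Bnip3l (1.24) stayed within 1.5-fold, and the median ratio of the 5 was 0.638. Thus 3 of the 5 were past 1.5-fold lower with intervals apart, against 4.79% of all measured genes, whose median ratio was 0.982.

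Across the transcriptome the Mt-high cells were close to the Mt-zero cells. A gene counted as measured where at least 20 UMIs were expected in the Mt-high cells at equal level, and 2445 genes outside the receptor segments passed. Slc39a10 and Epas1, with about 4 expected, did not, and stand beside this ranking by rule. The median ratio of Mt-high over Mt-zero cells was 0.982, and 90% of the measured genes lay between 0.627 and 1.36. A ratio of at least 1.5 was found for 40 genes (1.64%), of which 39 (1.60%) had intervals apart, and a ratio of at most 1/1.5 for 188 genes (7.69%), of which 117 (4.79%) had intervals apart. Without the Mt-high cell that held most of its UMIs, taken gene by gene, 9 genes were at 1.5 or more.

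Armc7 had the largest ratio of the measured genes. This gene of an armadillo repeat protein on chromosome 11 was at 233 CPM in Mt-high cells (180 to 295) and 83.8 CPM in Mt-zero cells (80.0 to 87.8), a ratio of 2.78 (2.14 to 3.54). It had 67 UMIs in 46 Mt-high cells, no more than 4 in any, and the ratio was 2.61 without the highest cell. Within the TRB families of at least 5 Mt-high cells the ratio was 0.249, but this value cannot settle the direction. It rests on 11 Mt-high cells of the TRBV12-2 TRBJ1-1 and TRBV19 TRBJ1-2 families, and the second had only 1 Mt-zero cell. An Armc7 UMI was found in 46 of 115 Mt-high cells and 1383 of 10000 Mt-zero cells (13.8%), and in 22.5% and 7.70% after thinning. Among its neighbours within 100 kb with at least 5 UMIs in Mt-high cells, the highest ratio was 1.44 (Kctd2). Atp5h, a subunit of ATP synthase, was at 694 CPM in Mt-high cells and 615 CPM in Mt-zero cells, Mrpl58 at 93.7 and 108 CPM, and Nt5c, whose annotation overlaps that of Armc7, at 86.8 and 147 CPM.

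Some of the other genes at the top rested on single cells. Xcl1, which encodes the chemokine lymphotactin, was at 437 CPM in Mt-high cells and 192 CPM in Mt-zero cells, but 78 of its 126 UMIs came from 1 cell, and without that cell the ratio of 2.27 became 0.87. Nolc1, a nucleolar protein gene, had 12 of 47 UMIs in 1 cell (1.96, or 1.46 without it), and Rel, an NF-κB subunit gene, 9 of 35 (1.68, or 1.25 without it). Hn1 was the most broadly found of the 15 genes named by the ranking, with a UMI in 74.8% of Mt-high cells and 49.3% of Mt-zero cells and a level of 712 CPM (618 to 816) against 415 CPM (406 to 424). The mitochondrial genes Grpel1 (1.87), Hadhb (1.76), Atp5l (1.72) and Timm13 (1.63) were among the 15, as were Mydgf (1.87), 2210016F16Rik (1.83), Rtf1 of the PAF1 complex (1.79), Gm5586 (1.77), Ctla2a, a cysteine protease inhibitor (1.67), and Ep400, a chromatin remodeller (1.61). In all, 9 of the 15 stayed at 1.5 or more without their highest cell, and 15 of 15 did when Mt-zero cells were weighted to the depth of the Mt-high cells.

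A wider ranking, chosen after these values were seen, took the 8232 genes with at least 200 UMIs over both classes. There Slc39a10 ranked first and Epas1 second, and 718 genes (8.72%) were at 1.5 or more, 161 of them (1.96%) with intervals apart. Another 1677 genes (20.4%) were at 1/1.5 or less, 271 of them (3.29%) with intervals apart. Cul3, the scaffold of a family of ubiquitin ligases, was at 170 CPM in Mt-high cells (126 to 225) and between 47.0 and 53.1 CPM in Mt-zero cells, a ratio of 3.40 from 49 UMIs in 41 Mt-high cells. Bcl9l, a coactivator of β-catenin, was at 115 CPM in Mt-high cells (78.9 to 161) and 36.4 CPM in Mt-zero cells (33.9 to 39.0), a ratio of 3.15 from 33 UMIs in 28 Mt-high cells. Clybl, Nit2 and Gmds had ratios of 4.16, 3.82 and 3.80, each from 14 UMIs or fewer.

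Some inhibitory genes of T cells were lower in Mt-high cells. Ctla4, an inhibitory receptor, was at 20.8 CPM in Mt-high cells (6 UMIs in 6 cells) and 109 CPM in Mt-zero cells, a ratio of 0.19 (0.07 to 0.42). Of the 16 listed inhibitory receptors and exhaustion factors 10 were measured, 4 were past 1.5-fold lower with intervals apart and none was higher, with a median ratio of 0.785. Over all measured genes 4.79% were lower and 1.60% higher by the same rule, and the median was 0.982. Beside Ctla4 these were Pdcd1, the gene of PD-1, at 191 CPM in Mt-high cells and 340 CPM in Mt-zero cells (0.56), Tigit at 45.1 and 82.0 CPM (0.55), and Nfatc1, a factor downstream of the receptor, at 246 and 424 CPM (0.58). Tox (0.91), Batf (0.96) and Lag3 (0.87) were within 1.5-fold. Of 18 effector genes 7 were measured and 2 were past 1.5-fold lower (7.69% of all measured genes), 1 of them with intervals apart (4.79% of all), with a median ratio of 0.700. The perforin gene Prf1 was at 118 CPM in Mt-high cells and 222 CPM in Mt-zero cells (0.53), Id2 was at 86.8 and 131 CPM (0.66) with overlapping intervals, and Tbx21, the gene of T-bet, was at 118 and 95.3 CPM (1.24). Ccl5, a chemokine gene, was at 732 CPM in Mt-high cells and 1073 CPM in Mt-zero cells (0.68), with 55 of 211 UMIs in 1 cell.

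The named genes lowest in Mt-high cells included regulators and signalling genes. S100a4, a calcium binding protein gene of effector and memory T cells, had 4 UMIs, which gave 13.9 CPM in Mt-high cells against 72.0 CPM in Mt-zero cells. Klf3, a transcriptional repressor gene, was at 55.5 CPM in Mt-high cells (31.7 to 90.2) and 166 CPM in Mt-zero cells (161 to 172), a ratio of 0.33. Ctdp1, a phosphatase of RNA polymerase II, was at 55.5 and 177 CPM in Mt-high and Mt-zero cells, and Nsmaf, which links TNF receptors to sphingomyelinase, at 34.7 and 120 CPM. Cd7, Sostdc1, Pde3b, Gng2, Pbrm1, Ispd, Srfbp1 and Vps41 had ratios from 0.30 to 0.37. Cd74, the invariant chain of MHC class II, had the smallest ratio (0.04), but its 1705 UMIs in Mt-zero cells came from 201 of the 10000 cells, against 1 UMI in Mt-high cells. All 15 kept a ratio of at most 1/1.5 under the weighting by depth.

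The lists for stimuli known to raise metallothioneins are given here with their counts, beside 1.64% of all measured genes past 1.5-fold higher and 7.69% past 1.5-fold lower. Of 10 glucocorticoid response genes 6 were measured and 3 were past 1.5-fold lower, with a median ratio of 0.736. They were Tsc22d3, the gene of the glucocorticoid-induced leucine zipper, at 170 CPM in Mt-high cells and 392 CPM in Mt-zero cells (0.43), Fkbp5 at 83.3 and 128 CPM (0.65, with overlapping intervals), and Nr3c1, the glucocorticoid receptor gene, at 135 and 208 CPM (0.65). Of 19 oxidative stress genes 8 were measured, none was past 1.5-fold, the median was 1.15 and the ratio of sums was 1.13 (1.05 to 1.23), with Sod2 highest among them at 118 CPM in Mt-high cells and 80.3 CPM in Mt-zero cells (1.47). Of 14 heat shock genes 11 were measured, with 1 lower (Hspa1b, 0.65), near the share over all genes, and a median of 0.889. Immediate early genes (8 measured) and interferon response genes (5 measured) had none past 1.5-fold, with medians of 0.884 and 0.954. Memory genes were level, with 11 of 15 measured and a median of 0.968. Xcl1 stood alone as higher, Il7r was at 52.1 CPM in Mt-high cells and 81.8 CPM in Mt-zero cells with overlapping intervals, and Tcf7, the factor of stem-like T cells, was at 774 CPM (676 to 883) and 623 CPM (613 to 634), a ratio of 1.24. Cytokine receptors had 6 of 16 measured, 2 past 1.5-fold lower (Il7r and Ifngr1, of which Ifngr1 had intervals apart), against 7.69% of all measured genes, and a median of 0.893. Cycling genes had none measured and summed to 83.3 CPM in Mt-high cells and 82.8 CPM in Mt-zero cells.

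Cells with 1 Mt UMI were near the Mt-zero cells in Slc39a10, Armc7, Ctla4 and Hif1a, while for Xcl1 and Cd74 the counting intervals were apart. Slc39a10 was at 13.6 CPM in cells with 0 Mt UMIs (12.1 to 15.3) and 19.1 CPM with 1, and the 26 cells with 2 Mt UMIs had none. With 3 to 9 Mt UMIs it was at 39.3 CPM (14.4 to 85.6), from 6 UMIs in 5 of 54 cells, and this interval overlapped that at 0. With 10 or more it was at 229 CPM (155 to 325), from 31 UMIs in 17 of 61 cells. Armc7 was at 83.8 CPM with 0 Mt UMIs, 76.5 CPM with 1, 108 CPM with 2, 190 CPM with 3 to 9 and 280 CPM with 10 or more. Ctla4 was at 109 CPM at 0 Mt UMIs, 130 CPM at 1, 71.7 CPM at 2, 6.56 CPM at 3 to 9 and 36.9 CPM at 10 or more. Hif1a was at 119, 126, 71.7, 45.9 and 29.5 CPM in the same classes. The intervals of the 197 cells with 1 UMI overlapped those of the Mt-zero cells for these 4 genes, while both classes of Mt-high cells differed from them in Armc7, Ctla4 and Hif1a. Xcl1 was at 260 CPM (218 to 308) with 1 Mt UMI and 192 CPM (187 to 198) with 0. Cd74 was at 1.91 CPM (0.05 to 10.7) with 1 Mt UMI and 79.7 CPM (76.0 to 83.6) with 0. At 2 Mt UMIs Cd74 was at 167 CPM, from 14 UMIs in 2 of 26 cells. An Xcl1 UMI was found in 20.8% of cells with 1 Mt UMI and 17.5% with 0, and a Cd74 UMI in 0.508% and 2.01%. The UMIs of both genes were unevenly spread over cells, which the intervals do not cover, so a difference cannot be settled.

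**Figure D3:**
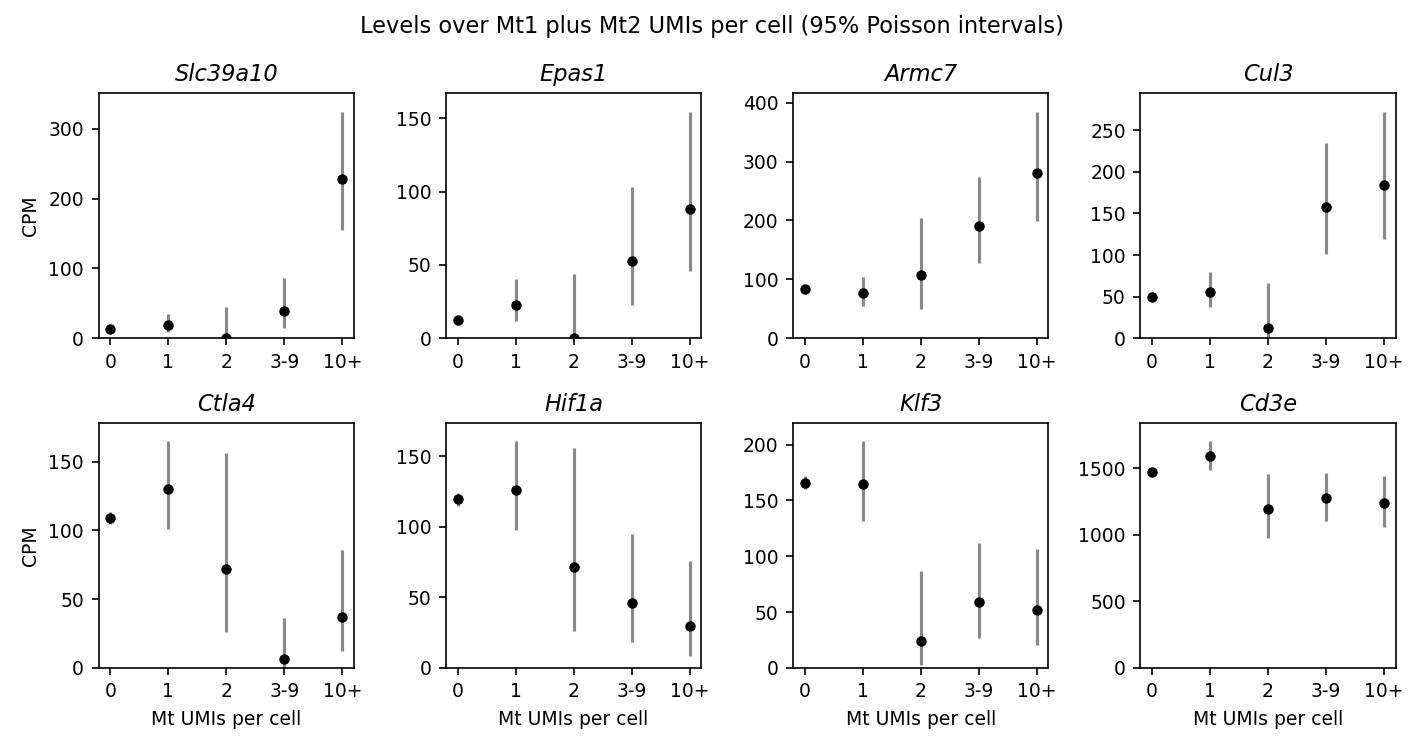
Levels in CPM (vertical axes) of 8 genes over classes of cells by Mt1 plus Mt2 UMIs (horizontal axes), with 95% Poisson intervals. Slc39a10 reaches 229 CPM at 10 or more Mt UMIs, Ctla4, Hif1a and Klf3 are lower at 3 or more UMIs than at 0, and Cd3e stays between 1195 and 1589 CPM.

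The T cell receptor set many of the Mt-high cells apart. The TCR library, which the rule did not use, was joined to the RNA library on the barcode and gave a clonotype for 4586 kept cells. Of the Mt-high cells 43 of 115 had one (37.4%), against 4437 of 10000 Mt-zero cells (44.4%). Among the 43 Mt-high cells, 25 (58.1%, 42.1% to 73.0%) carried 1 and the same TRA nucleotide sequence, against 5 of 4195 Mt-zero cells with a productive TRA (0.119%, 0.0387% to 0.278%). Seen from the sequence, 31 kept cells carried it and 25 were Mt-high (80.6%, 62.5% to 92.5%), 1 had 1 Mt UMI and 5 had none. Of the 4310 cells with other productive TRA, 18 were Mt-high (0.418%). The shared sequence was picked as the TRA found in the largest number of Mt-high cells, so these shares are a description. The sequences below are the CDR3 stretches that define this and the next groups of cells, with the first and last codon in capitals for productive chains.
TRA, TRAV12D-3 TRAJ37: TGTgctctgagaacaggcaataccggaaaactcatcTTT
TRB, TRBV19 TRBJ1-2: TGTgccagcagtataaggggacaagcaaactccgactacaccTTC
TRA, non-productive TRAV6-7-DV9 TRAJ32: tgtgctctgatccga
TRB, TRBV12-2 TRBJ1-1: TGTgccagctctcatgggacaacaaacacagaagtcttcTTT
The TRA gene segments lie on chromosome 14 and the TRB segments on chromosome 6. TRAV12 segments have near-identical copies in the mouse, and 2 of the 34 contigs with the first sequence were called TRAV12-2 instead, so its V name is uncertain.

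The beta chain of these cells was seldom assembled. Of the 25 Mt-high cells with the shared TRA, 16 had no productive TRB, 4 had the TRBV19 TRBJ1-2 sequence and 5 had other TRB. Over all Mt-high cells with a clonotype 18 of 43 had no productive TRB (41.9%), against 435 of 4437 Mt-zero cells (9.80%). The TRBV19 TRBJ1-2 sequence was found in 7 kept cells, and 6 of them were Mt-high, with 3, 5, 8, 10, 18 and 29 Mt UMIs. The 7th cell was 1 of the 5 Mt-zero cells with the shared TRA. All 5 of those had a productive TRB, and their contigs of the shared TRA had 3 to 8 UMIs, with a median of 6, against 2 to 20 UMIs, with a median of 11, in the Mt-high cells.

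Some Mt-high cells without the shared TRA carried other contigs found with it. A non-productive contig of TRAV6-7-DV9 and TRAJ32, with the short sequence printed above, was present in 12 of 25 Mt-high cells with the shared TRA and in 6 of 18 Mt-high cells with other clonotypes, against 89 of 4437 Mt-zero cells with a clonotype (2.01%, 1.61% to 2.46%). This contig or the TRBV19 TRBJ1-2 sequence was present in 8 of those 18 (44.4%). The 4456 cells with a clonotype and neither these nor the shared TRA held 10 Mt-high cells (0.224%, 0.108% to 0.412%). A contig of TRBJ2-3 without a V segment was present in 20 of the 25 Mt-high cells with the shared TRA (80.0%), in 5 of the 18 others and in 1154 of 4437 Mt-zero cells (26.0%). These sequences were chosen after the receptor contigs of the Mt-high cells had been seen.

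The RNA library, which shares its barcodes with the TCR library, held UMIs of Trbv19 and Trav6-7-dv9. These V segments were chosen from the contigs of the same Mt-high cells, so their counts are a description. A Trbv19 UMI was found in 11 of 115 Mt-high cells (9.57%, 4.87% to 16.5%) and in 44 of 10000 Mt-zero cells (0.440%, 0.320% to 0.590%). Among the 72 Mt-high cells without a clonotype 7 had one (9.72%), against 29 of 5563 Mt-zero cells without a clonotype (0.521%). None of the 18 Mt-high cells with another clonotype had one, with an interval of up to 18.5%. A Trav6-7-dv9 UMI was found in 8 Mt-high cells (6.96%) and 92 Mt-zero cells (0.920%), and 4 of the 8 had no clonotype. Trac, the constant segment of the alpha chain, was at 1736 CPM in all Mt-high cells and at 2681 CPM in those with the shared TRA, against 1393 CPM in Mt-zero cells.

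Among TRB families the Mt-high cells were few and unevenly spread. Cells with exactly 1 productive TRB, grouped by its CDR3 nucleotide sequence, formed 430 families with 24 Mt-high cells among 3879 (0.619%), and 14 families held at least 1. Of the 19 families with at least 30 cells 13 held none. The largest, TRBV15 TRBJ1-1, had 1 Mt-high cell of 882 (0.113%, 0.00287% to 0.630%), and the second had 2 of 600 (0.333%, 0.0404% to 1.20%). TRBV12-2 TRBJ1-1, the 11th by size, had 6 of 59 (10.2%, 3.82% to 20.8%), with 3, 3, 3, 4, 6 and 31 Mt UMIs. That share was not stable, since it was 3.39% at a threshold of 5 Mt UMIs and 1.79% after thinning. In the order of their Mt UMIs, the 6 cells had 4355, 5608, 5655, 2563, 4103 and 2053 UMIs in all. The median over all kept cells was 1922 UMIs. Within the family 4 of the 6 Mt-high cells carried a TRAV16D-DV11 TRAJ57 sequence found in 5 of its 59 cells, and 2 of the 50 cells with other productive TRA were Mt-high. Outside the family 523 cells carried the same TRA sequence under the same V and J names, and 2 of them were Mt-high (0.382%). Whatever the segment names, 538 kept cells carried the sequence, inside or outside the family, and 6 were Mt-high. The other families of at least 30 cells held 6 Mt-high cells among 2806 (0.214%), and families under 30 cells held 12 among 1014 (1.18%).

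**Figure D4:**
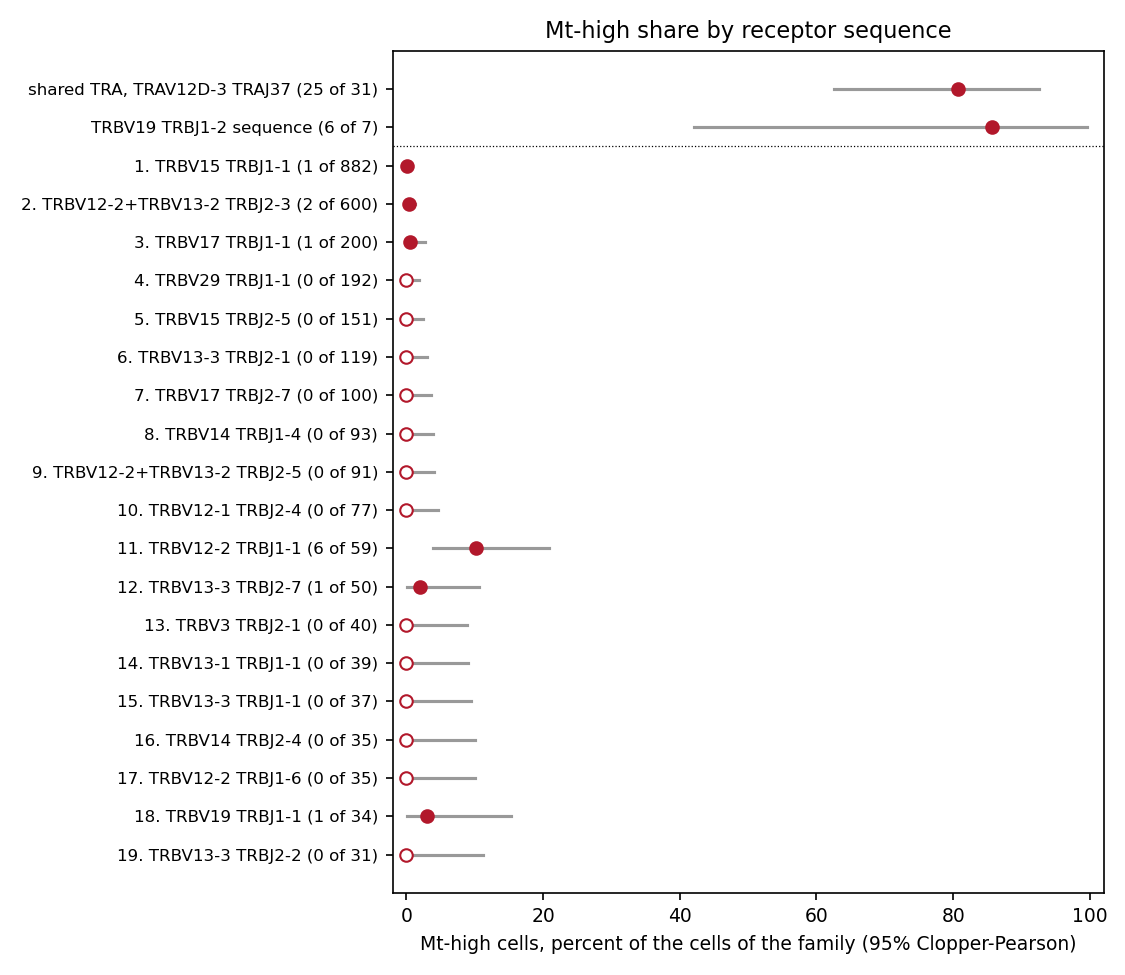
Percent of cells that are Mt-high (horizontal axis, points with 95% Clopper-Pearson intervals) for the shared TRA, the TRBV19 TRBJ1-2 sequence and, below the dotted line, the 19 TRB families of at least 30 cells by size. Open points are at 0; the 2 upper sequences are at 80.6% and 85.7%, and TRBV12-2 TRBJ1-1 at 10.2% is the highest of the 19.

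Slc39a10 was higher in Mt-high cells with the shared TRA or without a clonotype than in those with another clonotype, with intervals apart, and for Armc7 and Epas1 these intervals overlapped. As a description of the values the rule used, Mt UMIs had a median of 15 in the 25 cells with the shared TRA, 10.5 in the 72 cells without a clonotype and 5.5 in the 18 cells with another clonotype, and 17, 41 and 3 cells of these classes had 10 or more. The third class was also the deepest, with a median of 3243.5 UMIs per cell against 2080 with the shared TRA. Slc39a10 was at 182 CPM with the shared TRA (87.5 to 335), 155 CPM without a clonotype (101 to 227) and 15.3 CPM with another clonotype (1 UMI), against 13.6 CPM in Mt-zero cells. Armc7 was at 237, 274 and 122 CPM in the same 3 classes, against 83.8 CPM in Mt-zero cells. Epas1 was at 73.0, 89.4 and 15.3 CPM, but its 4 UMIs with the shared TRA came from 1 cell.

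Genes that were lower in Mt-high cells split in the same way only in part. Pdcd1 was at 54.7 CPM with the shared TRA (11.3 to 160), 179 CPM without a clonotype (121 to 255) and 336 CPM with another clonotype (211 to 509), against 340 CPM in Mt-zero cells. Ctla4 had 2, 4 and 0 UMIs in the 3 classes and was at 36.5, 23.8 and 0 CPM, against 109 CPM in Mt-zero cells. Tsc22d3 was at 219, 137 and 214 CPM, against 392 CPM in Mt-zero cells. Klf3 was at 146 CPM with the shared TRA, 35.7 CPM without a clonotype and 30.6 CPM with another, against 166 CPM in Mt-zero cells. Of the 15 named genes higher in Mt-high cells 11 had a ratio over 1 both in the cells with the shared TRA and in the other Mt-high cells. Nolc1 and Rtf1 had no UMI with the shared TRA. All 15 named lower genes were under 1 in both. Among them Cd74, S100a4, Ispd, Pde3b and Vps41 had no UMI with the shared TRA. Both sets of 15 were picked by their ratio over all Mt-high cells, which these groups make up. The counts are thus largely set by that choice and are a description. With the cells in which the shared TRA was assembled left out, Slc39a10 had a ratio of 8.50, Epas1 of 5.41 and Armc7 of 2.77. The 72 Mt-high cells without a clonotype, whose receptor is unknown, stayed in. They held 26 of the 27 Slc39a10 UMIs and 15 of the 16 Epas1 UMIs that were left. These 2 ratios therefore cannot show whether the difference holds outside the shared TRA. The part of the receptor, the mouse of origin and the depth in these differences was not tested.

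**Figure D5:**
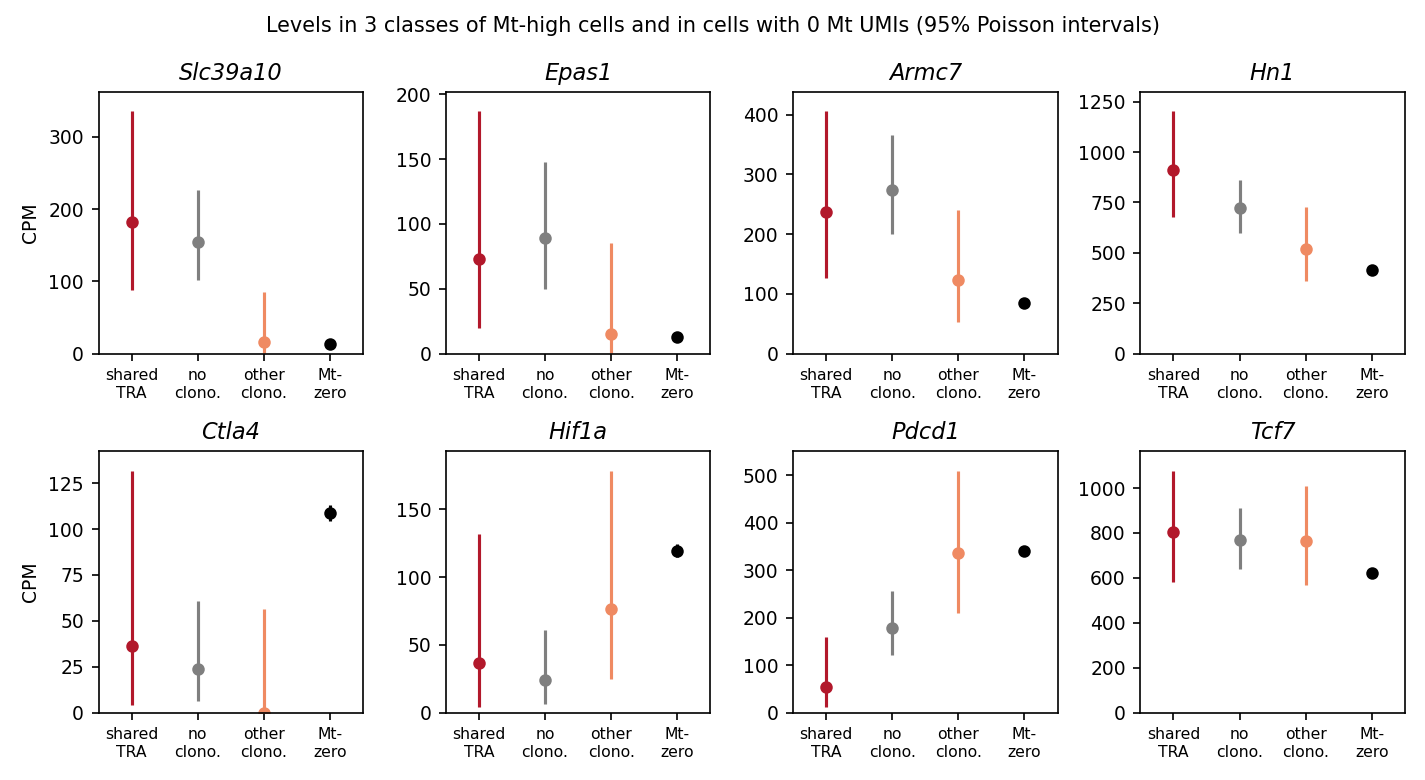
Levels in CPM (vertical axes) of 8 genes in Mt-high cells with the shared TRA, without a clonotype and with another clonotype, and in Mt-zero cells, with 95% Poisson intervals. Slc39a10 is at 182, 155, 15.3 and 13.6 CPM in this order, and Pdcd1 at 54.7, 179, 336 and 340 CPM.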

How the data were processed

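The deposited expression table gives unnormalized UMI counts for each gene in each barcode, and the deposited contig table holds counts of UMIs and reads per TCR contig. The tools featureCounts 2.0.1, STAR 2.6.1a and cutadapt 1.17 and the build GRCm38 are listed in the submitters' processing notes. Not given in the sources used here were the program that built the contigs and whether counting used strand. The limits of 200 genes and 20% mitochondrial UMIs removed 49 of 10387 barcodes (4 and 47, some by both). The 10338 kept cells had a median of 1922 UMIs, so genes of few CPM are counted poorly in 115 cells.

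Counts were summed over each class and divided by its UMIs, without Mt1 and Mt2, to give CPM. Sums have exact Poisson intervals, ratios exact conditional intervals and shares Clopper-Pearson intervals, all at 95% and for counting error only. The authors' counts were used as deposited, with python 3.11.15, numpy 2.4.6, scipy 1.17.1, pandas 2.3.3 and matplotlib 3.10.9, and the ratio step was tested on simulated data. PCR copies are removed by UMIs, but cells of 1 library are not replicates. No doublet caller was used, and barcodes with 2 productive TRB were left out in an alternative.

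Named genes are those of fixed lists, the 15 largest and 15 smallest ratios among measured genes past 1.5-fold with intervals apart, and Mt1, Mt2, Slc39a10 and Epas1. Receptor segments were ranked apart. The members, lists and rules were chosen with earlier results of these data known. Alternatives changed the threshold, depth, filters, totals and clonal makeup. RNA and TCR barcodes were joined by their sequence.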

Additional observations from a re-analysis of the deposited data

How the results depend on the processing

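No paired analysis was possible because there is 1 library and no replicate. The ratio of Slc39a10 stayed between 7.31 and 11.4 under all 13 alternatives that gave one, though the fit within TRB families of at least 5 Mt-high cells rests on 11 cells and 2 Slc39a10 UMIs, and Epas1 gave no ratio there. The 40 genes higher became 11 after thinning to 1000 UMIs (522 genes measured), 25 with at least 5 Mt UMIs, 9 without the highest cell of each gene, and 167, 4 and 718 with a minimum of 10 or 50 expected UMIs or 200 UMIs over both classes. The 188 genes lower became 29 after thinning, 31 within those TRB families, 103 with Mt-high cells without a clonotype only, 352 without the highest cell of each gene, and 563, 36 and 1677 under the 3 minimums. The minimums and the smaller sets of cells change how many genes are measured, and leaving out the highest cell lowers ratios by construction. Armc7 reversed to 0.249 within those TRB families, of which TRBV19 TRBJ1-2 had only 1 Mt-zero cell. Xcl1 reversed to 0.795 in the same families, 0.991 without a clonotype and 0.866 without its highest cell. The Mt-high share of TRBV12-2 TRBJ1-1 was 3.39% with at least 5 Mt UMIs and 1.79% after thinning, for which the cause was not tested, and was otherwise 9.52% to 11.9%. Members were 0.814% after thinning, 1.36% at 2 Mt UMIs and 0.880% at 5, by construction. The shared TRA made up 48.1% to 72.4% of Mt-high cells with a TRA under 6 alternatives. Alternatives on the receptor, the highest cell and the 200 UMI minimum were chosen after seeing the data.

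Depth limits the zinc transporters: apart from Slc39a10, no Slc39 or Slc30 gene had more than 10 UMIs in Mt-high cells, so differences under about the width of their intervals were not detectable.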
